A study of Mus musculus with 5 samples.

Results

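Transcripts of surface and quiescence genes of mouse muscle stem cells were followed through an anti-Staufen1 RNA immunoprecipitation. The genes were chosen by name: Calcr, Chrdl2, Cd34, Vcam1, Megf10, Gas1, Cdh15, Cdh2, Cxcr4 and Tenm4. Of these 10, 9 had a row in the deposited count table of 11194 genes, and Cdh2 was not analysed here. Every library was a precipitate made with a rabbit antibody to Staufen1, a protein that binds double-stranded RNA, from skeletal muscle stem cells described as quiescent. 3 libraries came from wild type mice (labelled Stau+/+) and 2 from Staufen knockout mice (labelled Stau-/-). The labels give no strain, age, sex or isolation gate, and do not name the Staufen allele. Nor do they state whether each library came from an animal of its own, so the spread behind every p-value may be technical. The design asks which RNAs come down with Staufen1 when the knockout precipitate serves as background. No input RNA was used here, so cellular abundance and antibody recovery are not separated, and fewer cells of a type and less RNA per cell cannot be told apart.

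Muscle stem cells, or satellite cells, lie between the muscle fibre and its basement membrane and rest outside the cell cycle until injury. They are recognised by the transcription factor Pax7 and by surface proteins that hold them in the niche or receive signals from it. Calcr, the calcitonin receptor, is needed in mice to keep these cells quiescent. Vcam1 and Cd34 are surface proteins widely used to sort them, and Cdh15 (M-cadherin) and Cdh2 (N-cadherin) are adhesion molecules at the contact with the fibre. Transcripts of several of these genes decline when the cells are activated.

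Calcr and Tenm4, the gene of the transmembrane protein teneurin-4, are also host genes of microRNAs. These sequences are shown because miR-489 and miR-708 are themselves known to keep mouse satellite cells quiescent, miR-489 by repressing Dek and miR-708 by repressing Tns3. The hairpin of miR-489 lies at chr6:3721897-3722003 (minus strand, GRCm38.p6) and that of miR-653 at chr6:3721301-3721385, both on the strand of Calcr and outside its exons in the count table. The arms of miR-708 lie at chr7:96249450-96249472 and chr7:96249496-96249517 (plus strand), on the strand of Tenm4 and likewise outside its exons. The mature sequences, from RefSeq, are written 5′ to 3′ with the seed, bases 2 to 8, in capitals.
mmu-miR-489-3p: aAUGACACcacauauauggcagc
mmu-miR-489-5p: uGUCAUAUgugugaugacacuuucu
mmu-miR-653-3p: uUCACUGGaguuuguuucagu
mmu-miR-653-5p: gUGUUGAAacaaucucuacug
mmu-miR-708-5p: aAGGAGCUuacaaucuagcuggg
mmu-miR-708-3p: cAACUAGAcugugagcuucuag
No seed was shared among these 6 arms. None of the microRNAs has a row of its own in the table, so the counts below are those of the host genes' exons and give no level of any microRNA.

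Library totals ran from 33846391 to 105473455 counts in wild type and were 9370244 and 3091302 in knockout 1 and 2, so depth and genotype ran together. Levels below are CPM, each count scaled to a common library size adjusted by the trimmed mean of M-values (TMM). Stau1 itself had 116.4 ± 11.4 CPM (SD, n = 3) in wild type and 109.9 ± 1.19 CPM (SD, n = 2) in knockout. A lower Stau1 transcript level was not detectable under the knockout label (log2 fold change 0.08, 95% interval -0.32 to 0.49), and every direction below rests on the labels. Pax7 had 211.3, 263.2 and 241.5 CPM in wild type and 251.7 and 180.7 CPM in knockout, so the defining marker of the cells was present in every library and the groups overlapped. Counts over whole genes cannot show the loss of part of Stau1 or of its protein.

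Of the 9 genes, 1 passed the test, Gas1, which was higher in wild type at an adjusted p under 0.05, where 1.05% of all 11194 genes were called in that direction. In edgeR's quasi-likelihood test, adjusted over all genes, 0 of the 9 were higher in knockout, against 1.00% of all genes. None had an unadjusted p under 0.05 in the knockout direction, and DESeq2 and limma-voom likewise called 0 there. All 9 had a log2 fold change (wild type over knockout) above 0, as did 50.3% of all genes, and the median was 0.58 against 0.00 over all genes. In 8 of the 9, every wild type library lay above every knockout library, against 20.4% of all genes. An unadjusted p under 0.05 in the wild type direction was reached by 6 of 9, against 10.4% of all genes. Genes that vary together across these 5 libraries are not independent, so these counts describe the genes and carry no p of their own.

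**Figure D1:**
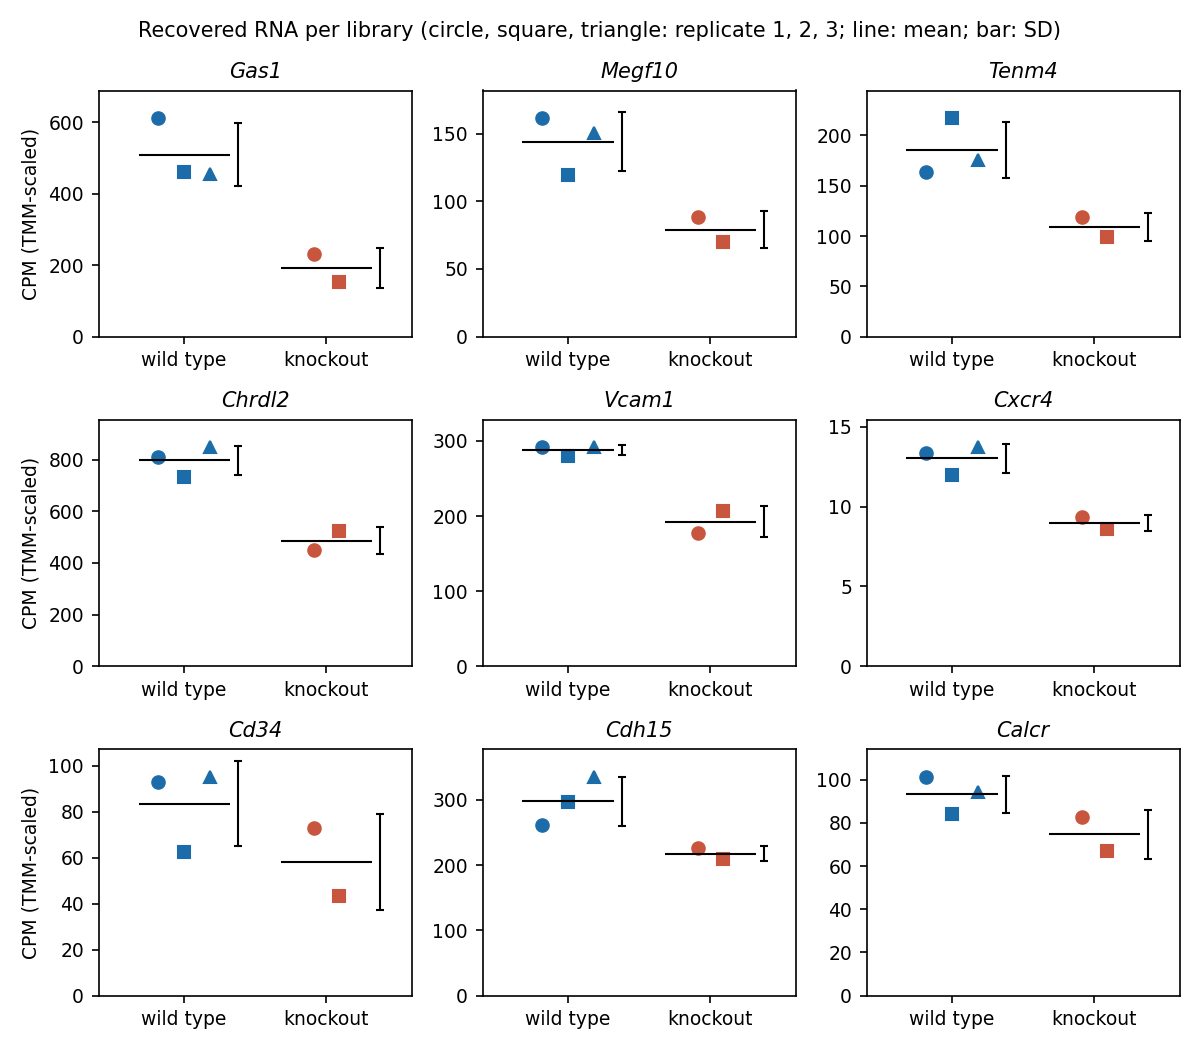
Level of each of the 9 genes in each library, in CPM on a linear axis from 0 (blue, 3 wild type libraries; red, 2 knockout libraries; line, mean; bar, SD). The groups lie apart in every panel except that of Cd34, where knockout 1 (73.1 CPM) lies above wild type 2 (62.5 CPM).

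Among the genes that act on growth signals, Gas1 had the largest difference. Gas1 (growth arrest specific 1) encodes a lipid-anchored surface protein that acts as a co-receptor for Hedgehog ligands and is induced in arrested cells. The gene is a single exon of 2961 bases at chr13:60174405-60177365 (minus strand, mm10), and no other RefSeq gene overlaps it. Its level was 611.9, 460.0 and 455.3 CPM in wild type 1 to 3, and 232.4 and 152.4 CPM in knockout 1 and 2. The lowest wild type library stood 1.96-fold above the highest knockout library. Means were 509 ± 89.1 CPM (SD, n = 3) and 192.4 ± 56.6 CPM (SD, n = 2), and the log2 fold change was 1.40 (SE 0.23, 95% interval 0.91 to 1.89, adjusted p = 0.012). This is a 2.64-fold difference, and Gas1 ranked 23 by p among all genes. The knockout values rest on 2219 and 479 counts. The call was lost without knockout 2 (log2 fold change 1.13, adjusted p = 0.0613) and with limma-voom (1.34, adjusted p = 0.0513).

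Chrdl2 (chordin-like 2) encodes a secreted antagonist of bone morphogenetic proteins and was the most abundant of the 9. It had 808.4, 733.9 and 847.2 CPM in wild type and 448.9 and 523.9 CPM in knockout. The wild type libraries were all higher, by at least 1.40-fold. Its log2 fold change was 0.71 (SE 0.18, 95% interval 0.33 to 1.10), and the adjusted p of 0.0544 missed the threshold. In contrast to Gas1, knockout 2 had the higher of the knockout values.

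Megf10, a receptor with many EGF-like repeats that regulates satellite cell proliferation and serves as an engulfment receptor in glia, had the second largest difference. Its level was 161.6, 119.5 and 150.7 CPM in wild type and 88.6 and 69.7 CPM in knockout. The groups did not overlap, and wild type 2 was the lowest of its group. For Megf10 the log2 fold change was 0.86 (SE 0.21, 95% interval 0.40 to 1.31, adjusted p = 0.0533), which narrowly missed the threshold. The span of Megf10 overlaps the pseudogene Gm18322. Reads could be shared only if the overlap reaches the counted exons, which was not examined.

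Of the adhesion genes, Tenm4 differed most. Tenm4 is a large transmembrane protein that binds latrophilins on neighbouring cells, and its loss in mice is known to disturb satellite cell quiescence. It had 164.0, 217.4 and 175.2 CPM in wild type and 119.0 and 98.9 CPM in knockout, with wild type 2 the highest library. The log2 fold change was 0.76 (SE 0.20, 95% interval 0.33 to 1.20, adjusted p = 0.0632), which did not pass. Its span at chr7:96171244-96911093 (mm10) holds 42 merged exons of 21030 bases in all, the longest of the 9, and overlaps the noncoding genes Gm15412 and Gm15413 beside the microRNAs.

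Vcam1, an immunoglobulin-family adhesion molecule and ligand of integrins with the Itga4 chain, was the steadiest in wild type. It had 291.5, 280.6 and 291.5 CPM there, a coefficient of variation of 2.18%, and 177.8 and 206.8 CPM in knockout. The groups lay apart by 1.36-fold at their nearest libraries. The log2 fold change was 0.58 (SE 0.18, 95% interval 0.20 to 0.97) with an adjusted p of 0.092.

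Cdh15, the M-cadherin that joins satellite cells to the fibre, had 261.2, 295.7 and 334.9 CPM in wild type and 225.7 and 209.3 CPM in knockout. Its lowest wild type library was 1.16-fold above its highest knockout library. The log2 fold change of 0.45 (SE 0.19, 95% interval 0.05 to 0.85) had an adjusted p of 0.196 and did not pass.

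Calcr had the smallest difference. Its level was 101.3, 84.3 and 94.1 CPM in wild type and 82.7 and 66.8 CPM in knockout, so that wild type 2 and knockout 1 were almost level, at a ratio of 1.02. Calcr had a log2 fold change of 0.31 (SE 0.20, adjusted p = 0.416), with a 95% interval of -0.12 to 0.75 that holds both no difference and a 1.68-fold excess in wild type. The span of Calcr overlaps the noncoding gene Gm33576. Overlap with the counted exons was not examined, and the strand setting of the counting is not given in the sources used here.

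Cxcr4, the receptor of the chemokine Cxcl12 and a homing receptor of many stem and blood cells, was the least abundant. It had 13.4, 12.0 and 13.7 CPM in wild type and 9.32 and 8.59 CPM in knockout. The groups did not overlap, yet knockout 2 rested on 27 counts, whose 95% exact Poisson interval is 5.66 to 12.5 CPM and reaches the wild type values. The log2 fold change was 0.53 (SE 0.36, 95% interval -0.24 to 1.30, adjusted p = 0.431), with the widest interval of the 9, so a difference was not detectable at this depth. The Poisson interval covers counting error only, and no molecular identifiers are mentioned in the protocol.

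Cd34, a sialomucin of stem cells, blood progenitors and endothelium, was the most variable and the only gene whose groups overlapped. It had 93.1, 62.5 and 95.2 CPM in wild type and 73.1 and 43.6 CPM in knockout. Its log2 fold change of 0.50 (SE 0.26, adjusted p = 0.3) was 0.19 without knockout 2 and 0.94 without knockout 1. The span of Cd34 overlaps the noncoding gene Gm16897, and overlap with its counted exons was not examined.

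**Figure D2:**
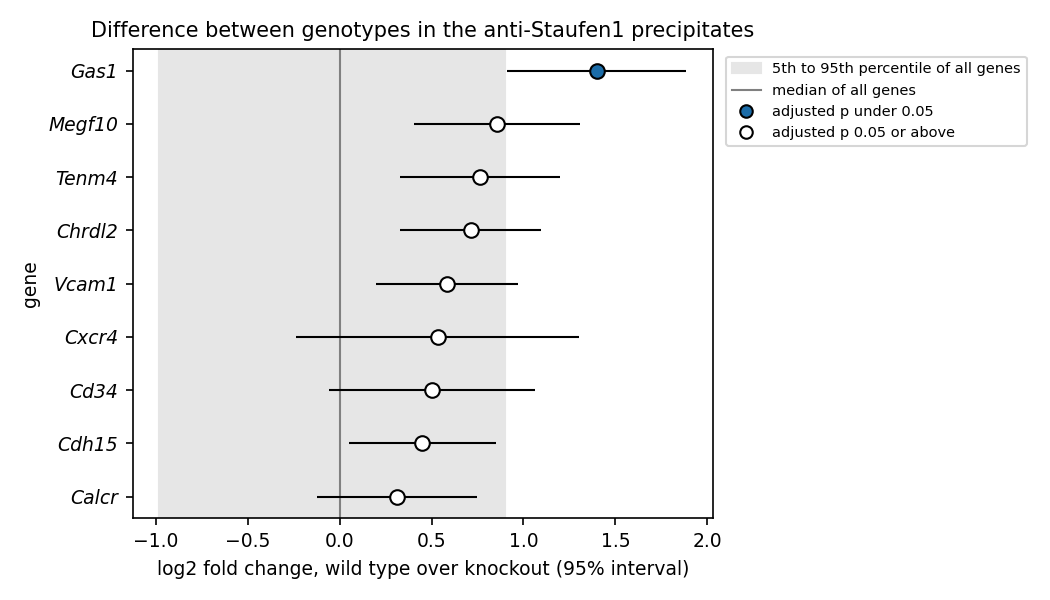
Log2 fold change of wild type over knockout for each gene with its 95% interval, over the median (line) and the 5th to 95th percentile (grey) of all 11194 genes. Gas1 lies above the 95th percentile of 0.90, Megf10 at 0.86 just inside it, and the intervals of Cxcr4, Cd34 and Calcr include 0.

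Levels of different genes can be set side by side only per length, as CPM per kilobase of merged exons. On that scale Chrdl2 led, at 460.9 ± 33.3 (SD, n = 3) in wild type and 281.5 ± 30.7 (SD, n = 2) in knockout. Gas1 (171.9 ± 30.1 and 65.0 ± 19.1 CPM per kilobase) and Cdh15 (104.6 ± 13.0 and 76.5 ± 4.07) came next. Gas1 lay above Cdh15 in all 3 wild type libraries and below it in both knockout libraries. Vcam1 followed at 84.7 ± 1.85 and 56.6 ± 6.03 CPM per kilobase, below Cdh15 in 5 of 5 libraries. Cd34 (31.9 ± 6.99 and 22.3 ± 7.96) and Calcr (23.8 ± 2.19 and 19.1 ± 2.88) overlapped in both groups and were in this order in 4 of 5 libraries. Megf10 (18.7 ± 2.83 and 10.3 ± 1.73) lay below Calcr in all 5. Tenm4 (8.82 ± 1.34 and 5.18 ± 0.674) and Cxcr4 (7.20 ± 0.505 and 4.95 ± 0.286) were lowest, and their ranges overlapped in knockout. Gene length sets part of this order: by CPM alone Tenm4 ranked 5 of 9 and Cd34 8, in place of 8 and 5. By level per kilobase Chrdl2 lay above 98.6% of all genes in the table and Cxcr4 above 46.9%.

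Across libraries the 9 genes shared a profile. The mean of their log2 CPM, each gene centred over the 5 libraries, was 0.33, 0.17 and 0.33 in wild type 1 to 3 and -0.30 and -0.53 in knockout 1 and 2. Knockout 2 was the lower of the knockout libraries for 7 genes, and knockout 1 for Chrdl2 and Vcam1. Wild type 2 was the lowest wild type library for Calcr, Chrdl2, Cd34, Vcam1, Megf10 and Cxcr4 and the highest for Tenm4. The correlation of each gene with the mean of the other 8 was highest for Cxcr4 (r = 0.99) and lowest for Cd34 (r = 0.77), over 5 libraries that also share the genotype and depth contrast. Among 3567 other genes with a symbol and at least 50 CPM on average, the most similar profiles by Pearson's r over the 5 libraries were those of Col5a2, Creb3l2 and Ppp1r15a. Col5a2, a chain of collagen V, had r = 0.998, with 192.3, 178.9 and 198.6 CPM in wild type and 122.8 and 101.5 CPM in knockout. Creb3l2, a membrane-bound transcription factor of the secretory pathway, and Ppp1r15a, a regulatory subunit of the phosphatase that reverses the stress-induced block of translation, both had r = 0.997.

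Set against Pax7 in the same library, a ratio chosen after the values were seen, 3 of the 9 genes still had all wild type libraries above all knockout libraries: Gas1, Megf10 and Tenm4. The ratio of Gas1 to Pax7 was 2.90, 1.75 and 1.89 in wild type and 0.923 and 0.843 in knockout. That of Megf10 was 0.765, 0.454 and 0.624 against 0.352 and 0.386, and that of Tenm4 0.776, 0.826 and 0.726 against 0.473 and 0.548. The other 6 overlapped. For example, Cdh15 to Pax7 was 1.24, 1.12 and 1.39 in wild type and 0.897 and 1.16 in knockout.

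**Figure D3:**
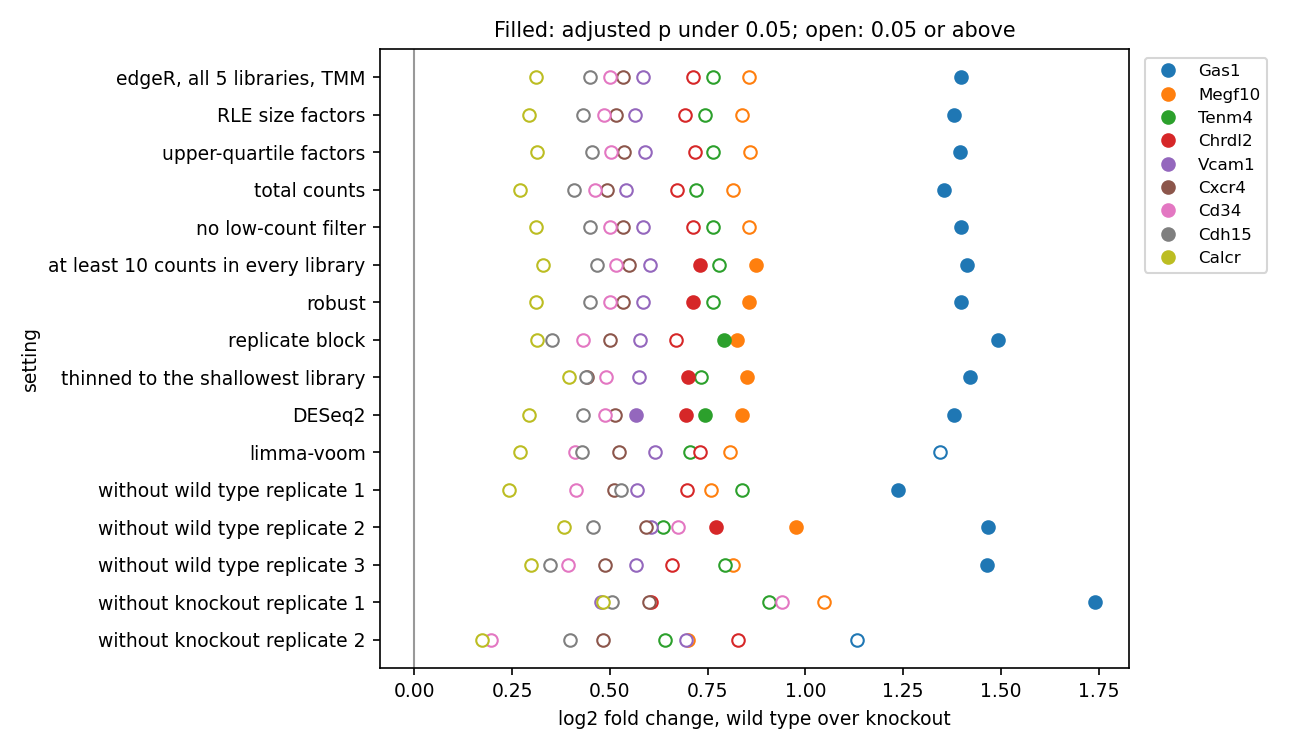
Log2 fold change of each gene under the settings named on the vertical axis (filled, adjusted p under 0.05). All 9 genes stay above 0 in every setting shown, and Gas1 is the only one filled in most of them.

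Genes that work with the 10 were read from a list of ligands, receptors and complex partners, of which 45 of 53 had a row. 3 of the 45 were higher in wild type, 0 were higher in knockout and 42 passed neither way by edgeR, with a median log2 fold change of 0.21. Over all genes, 1.05% were called higher in wild type and 1.00% in knockout. At an unadjusted p under 0.05, 3 were higher in knockout, and DESeq2 called 1 there and limma-voom 0. The 3 that passed are partners of different genes. Bmp6, a bone morphogenetic protein of the family that chordin-like proteins bind, had 105.6, 81.9 and 101.1 CPM in wild type and 33.0 and 35.0 CPM in knockout (log2 fold change 1.50, SE 0.22, adjusted p = 0.00964). Ctnnd1, the p120 catenin that stabilises cadherins at the membrane, had 73.5, 69.6 and 72.9 CPM in wild type and 36.5 and 30.5 CPM in knockout (log2 fold change 1.09, SE 0.22, adjusted p = 0.0236). Smo, the Hedgehog signal transducer, had 59.3, 53.5 and 57.9 CPM in wild type and 33.2 and 23.9 CPM in knockout (log2 fold change 0.98, SE 0.24), and its adjusted p of 0.04995 lay barely under the threshold.

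The other 42 partners passed neither way, with values on both sides of 0. Adgrl3, one of the latrophilins that teneurins bind, had 6.46 ± 2.55 CPM (SD, n = 3) in wild type and 17.5 ± 0.516 CPM (SD, n = 2) in knockout, with both knockout libraries above all wild type libraries (log2 fold change -1.45, SE 0.41, adjusted p = 0.0753). The latrophilins Adgrl1 (0.25) and Adgrl2 (0.35) lay slightly above 0. Cdh4, a cadherin, had 11.6 to 16.1 CPM in wild type and 17.2 to 30.9 CPM in knockout (-0.81, adjusted p = 0.185). Cxcl12, the ligand of Cxcr4, had 315.6 against 279.4 CPM (log2 fold change 0.17), and Ackr3, the second receptor of that ligand, 513.6 against 331.8 CPM (0.63, adjusted p = 0.0871). Of the proteins that modify the calcitonin receptor, Ramp2 had 198.8 against 158.2 CPM (0.33), while Ramp1 (5.58 against 9.52 CPM) and Ramp3 (5.22 against 11.9 CPM) were scarce. The catenins Ctnnb1 (log2 fold change 0.06) and Ctnna1 (0.09) lay near 0. Itgb1, an integrin chain that pairs with Itga4, was at 0.65 (adjusted p = 0.0756), and Tenm3, a paralog of Tenm4, at 0.99 (adjusted p = 0.0844), without passing.

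Further stem cell genes differed between the genotypes. Of 34 other genes of satellite cell identity and quiescence, all with a row, 7 were higher in wild type, 0 were higher in knockout and 27 passed neither way, and their median log2 fold change was 0.55. The shares called over all genes were 1.05% in the wild type direction and 1.00% in the knockout direction. In the knockout direction 1 had an unadjusted p under 0.05, and DESeq2 and limma-voom called 0. The 7 were Dag1, Spry1, Itm2a, Msc, Tgfbr3, Sdc4 and Fgfr4, with log2 fold changes from 0.79 for Fgfr4 to 1.58 for Dag1. Itm2a, a transmembrane protein of myogenic and cartilage cells, had a mean of 302.8 ± 56.1 CPM over the 3 wild type libraries and 132.8 ± 12.0 CPM over the 2 knockout libraries (SD). Tgfbr3, the betaglycan co-receptor, had 287.2 ± 66.9 against 149.3 ± 27.1 CPM. Chodl, a satellite cell surface lectin, had 470.3 against 277.4 CPM and an adjusted p of 0.0533. Itga7, the laminin-binding integrin chain of the cells, had 393.8 against 387.5 CPM, a log2 fold change of 0.02. Leaving out wild type 1, knockout 1 or knockout 2 reduced the count of 7 to 2, and leaving out wild type 3 reduced it to 1. Of 18 activation and commitment genes, 11 had a row, and 3 of these were higher in wild type: Myod1, Egr1 and Ccnd1 (29.2 ± 2.32 against 10.9 ± 4.67 CPM). Of the 11, 0 were higher in knockout and 8 passed neither way, and DESeq2 called 5 higher in wild type and limma-voom 0. The median log2 fold change of the 11 was 0.55, close to that of the stem cell genes, and 8 lay above 0. The list was mixed: Top2a (-0.18), Mcm2 (-0.31), Pcna (-0.03) and Mcm5 (0.31), genes of DNA replication, had overlapping groups. Mki67, Cdk1, Ccna2 and Ccnb1 had no row.

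**Figure D4:**
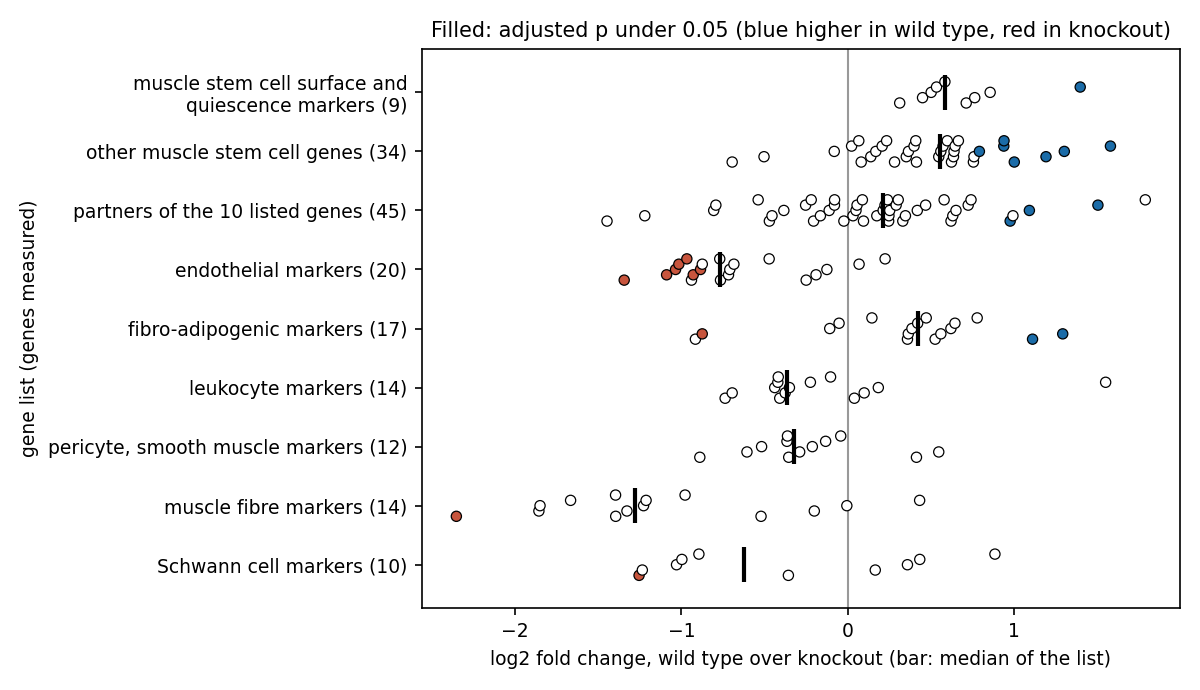
Log2 fold change of wild type over knockout for each gene of 9 lists, with the list's median as a bar (blue, higher in wild type; red, higher in knockout; both at an adjusted p under 0.05). The muscle stem cell lists lie mostly to the right of 0, at medians of 0.58 and 0.55, as do the fibro-adipogenic markers (0.42), and endothelial markers to the left, at -0.77. The activation and commitment genes are not drawn.

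Among markers of other cell types, those of endothelium differed most often. Of 20 endothelial markers, all measured and none at 0 counts in any library, 7 were higher in knockout and 13 passed neither way. The 7 were Fabp4, Egfl7, Flt1, Ly6c1, Aqp1, Icam2 and Emcn, at log2 fold changes from -0.89 to -1.34. Over all genes, 1.00% were called higher in knockout and 1.05% in wild type. By edgeR 0 were higher in wild type, with 0 at an unadjusted p under 0.05 and 0 by DESeq2 or limma-voom. In the knockout direction 15 of the 20 had an unadjusted p under 0.05. Their summed level was 1848 to 2651 CPM in wild type and 3810 to 4109 CPM in knockout. Endothelium is known to express Cd34 and Vcam1 too. Of 14 leukocyte markers measured of 17, 0 passed either way by edgeR (1 with an unadjusted p under 0.05 and 1 by DESeq2, both higher in wild type; limma-voom 0), with sums of 429.2 to 670.8 CPM in wild type and 711.0 to 718.2 CPM in knockout.

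The next lists stand beside the same shares over all genes, 1.05% higher in wild type and 1.00% in knockout. Of 17 fibro-adipogenic progenitor markers measured of 18, 2 were higher in wild type (Col1a1 and Col3a1), 1 was higher in knockout (Ly6a) and 14 passed neither way. At an unadjusted p under 0.05, 5 were higher in wild type and 2 in knockout, and 13 of the 17 had a log2 fold change above 0. Their sum was 4449 to 6492 CPM in wild type and 3852 to 3893 CPM in knockout, and these cells also carry Cd34. Gsn (means of 2758 CPM in wild type and 2061 CPM in knockout) and Col3a1 (1103 and 511 CPM) were the largest parts of that sum. Of 14 muscle fibre markers measured of 16, 1 was higher in knockout, Casq1, and the sum was 653.3 to 743.1 CPM in wild type, 524.8 CPM in knockout 1 and 2983 CPM in knockout 2. Of 10 Schwann cell markers 1 was higher in knockout, Mbp, with sums of 446.2 to 584.2 against 551.0 to 682.7 CPM. Of these 10, 5 had an unadjusted p under 0.05 in the knockout direction and 0 in the other. Of 12 pericyte and smooth muscle markers, a list that shares Notch3 and Des with the stem cell list, 0 passed either way by edgeR (2 and 3 at an unadjusted p under 0.05, and 1 each way by DESeq2; limma-voom 0), with sums of 2862 to 3041 against 2666 to 2819 CPM. The summed endothelial and leukocyte levels were higher in both knockout libraries than in any wild type library, and the summed fibro-adipogenic and pericyte levels lower. The pericyte sum was dominated by the shared gene Des, with means of 1370 CPM in wild type and 938 CPM in knockout. Of the 12 pericyte markers, 2 had a log2 fold change above 0, and the median was -0.32, so the sum and the single markers differed in direction. The Schwann cell sums overlapped, and the fibre sum was high in knockout 2 alone. The part of these markers and of depth in the differences of the 9 genes was not tested.

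RefSeq promoter windows, from 250 bases before to 50 after a start site, were found for 6 of the 9 genes. The E-box CANNTG (palindromic, so the same on both strands), the motif of MyoD-family factors among others, occurred in 3 of these 6, in the window nearest the gene's start in the count table, and in 72.3% of 32851 windows of the same length. The 3 were Calcr, Cdh15 and Tenm4, none of which passed the test, and the window of Gas1 held none. The GC box GGGCGG, searched on both strands, occurred in 3 of the 6 (Gas1, Cdh15 and Cxcr4) and in 35.7% of all windows. The windows of Gas1, the gene that passed, and of Cdh15, which held the most E-boxes, are shown for that contrast, 5′ to 3′ on the gene's strand, with E-boxes in capitals. They lie at chr13:60177486-60177785 (minus strand) and chr8:122848124-122848423 (plus strand) in GRCm38.p6.
Gas1: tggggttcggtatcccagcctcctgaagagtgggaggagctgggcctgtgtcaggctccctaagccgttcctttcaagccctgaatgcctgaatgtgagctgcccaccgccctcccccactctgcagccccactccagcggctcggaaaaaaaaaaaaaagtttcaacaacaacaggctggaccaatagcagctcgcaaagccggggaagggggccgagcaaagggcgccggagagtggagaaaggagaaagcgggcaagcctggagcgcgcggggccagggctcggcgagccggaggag
Cdh15: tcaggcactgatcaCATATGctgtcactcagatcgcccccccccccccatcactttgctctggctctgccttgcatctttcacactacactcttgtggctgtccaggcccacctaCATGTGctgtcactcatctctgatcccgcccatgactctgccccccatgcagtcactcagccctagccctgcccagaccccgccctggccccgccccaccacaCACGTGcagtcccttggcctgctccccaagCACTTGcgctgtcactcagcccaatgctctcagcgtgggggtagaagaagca
The window of Cdh15 holds 4 E-boxes. These letters describe the windows, and the precipitated RNA gives no measure of promoter activity.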

How the data were processed

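Precipitated RNA was reverse-transcribed from oligo(dT), amplified and sequenced as paired-end 101-base reads, per the labels' protocols. The submitters' processing notes list Trim Galore, STAR, featureCounts, Subread, edgeR and mm10, and no source used here gives versions, annotation release or strandedness. In the deposited table, raw gene counts stand beside a merged exon length, the other deposited value used. Its values show an earlier filter, since the third-highest unscaled CPM of a gene was never below 3.02. A gene found only in the 3 wild type libraries could pass such a filter, and a gene found only in the 2 knockout libraries could not. The shares of all genes called in each direction were therefore not drawn under equal conditions. Among the 9 genes the lowest CPM was 8.59 (Cxcr4, knockout 2). Some list genes named above lay lower, such as Ramp3 at 2.59 CPM in wild type 3.

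The deposited counts were analysed with edgeR 4.0.16 (R 4.3.3): TMM scaling after filterByExpr (0 genes removed), estimateDisp, glmQLFit, and a two-sided quasi-likelihood test of genotype on all 5 libraries, adjusted by Benjamini-Hochberg over 11194 genes at a threshold of 0.05. Standard errors come from the coefficient and its F statistic. Every p printed is from that test unless another tool is named. DESeq2 1.42.0 and limma-voom (limma 3.58.1) were among the alternatives. The scripts were tested on simulated data. Libraries within a group were not copies of each other (chi-square per degree of freedom of 17.7 or more).

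The genes and lists were chosen with earlier results of these data known. By rule the text names all 9 genes, Stau1, Pax7, Myod1, the called genes and 3 smallest p of the partner and stem cell lists, called markers, and the 3 most similar profiles. Cxcl12, Ackr3, Ramp1, Ramp2, Ramp3, Ctnnb1, Ctnna1, Itgb1, Tenm3, Chodl and Itga7 were added after their values were seen. Adgrl1, Adgrl2, Adgrl3, Cdh4, Des, Egr1, Ccnd1, Top2a, Mcm2, Mcm5, Pcna and Gsn are also named outside that rule.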

Additional observations from a re-analysis of the deposited data

How the results depend on the processing

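Over 15 alternatives, all 135 values of the 9 genes kept their direction. Gas1 was called in 13 of 15, with log2 fold changes from 1.13 to 1.74. The number of the 9 genes called higher in wild type, 1, was 3 with at least 10 counts in every library (Gas1, Megf10 and Chrdl2), 3 with robust empirical Bayes, 3 after thinning every library to the shallowest total, 5 with DESeq2 (also Tenm4 and Vcam1) and 0 with limma-voom. With one library left out it ranged from 0 to 3: 0 without knockout 2 and 3 without wild type 2. A lone knockout library is then assumed to vary like the wild type group. The number higher in knockout was 0 throughout. Over all genes, the count higher in wild type, 118, was 433 with DESeq2 and 8 with limma-voom, and 21, 11 and 64 when wild type 1, wild type 3 or knockout 2 was left out, so the shares against which the 9 genes are read move with the setting. The count higher in knockout, 112, was 457, 14, 40, 23 and 82 in the same settings, 175 after thinning and 172 without wild type 2. Among the other muscle stem cell genes, 12 were called with DESeq2 and 0 with limma-voom in place of 7. Of the partners, 6, 0 and, after thinning, 1 were called in place of 3, and 1 when wild type 1, wild type 3 or knockout 2 was left out. Endothelial markers higher in knockout numbered 13 with DESeq2, 1 with limma-voom or without wild type 3, and 2 without knockout 1 or knockout 2, in place of 7. The causes were not tested. The deviations of same-numbered libraries correlated at 0.051 and 0.047, and those of differently numbered libraries at -0.051 to 0.0049. With only 2 knockout libraries, their deviations mirror each other. This check therefore cannot decide whether the libraries were paired. With the replicate block, 3 of the 9 genes were called (Gas1, Megf10 and Tenm4), and 288 genes in all were higher in wild type and 324 in knockout. In that fit wild type 3 has no knockout of its number, so the genotype difference rests on replicates 1 and 2. It also assumes a pairing that was not established. By CPM without gene length, 4 of the 9 genes changed rank.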
